A study of Sus scrofa with 8 samples.

Results

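The transcripts of 4 genes of iron storage and transport were read in pig whole blood: the ferritin heavy chain (FTH1), the ferritin light chain (FTL), hepcidin (HAMP) and transferrin (TF). A probe belonged to them when the array's annotation gave 1 of these symbols as its gene name, or gave the symbol or the full gene name in its description. This rule took 18 of the 43603 probes: 10 for FTH1, 3 for FTL, 1 for HAMP and 4 for TF. The rule used no measured value, though the 4 genes were chosen with earlier results of these data known. The animals compared were 4 female miniature pigs fed SDW, a shochu distilled water mixed by weight in equal parts with standard dry feed and water, and 4 female miniature pigs fed the standard dry feed alone (control). All were 8 to 9 months old. The design text calls them Clawn miniature pigs, whereas the labels call the breed a conventional miniature pig. The design text places the blood sampling at 12 weeks of feeding, whereas the descriptions of the animals give 14, 15, 16 and 17 weeks for replicates 1, 2, 3 and 4 of each diet. Each animal gave 1 array.

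Ferritin stores iron inside a hollow protein shell built of heavy chains, which oxidise ferrous iron, and light chains, which help the iron mineral to form. Transferrin, made mainly by the liver, carries iron in plasma to cells that take it up through the transferrin receptor. Hepcidin is a liver hormone that makes the iron exporter ferroportin be degraded, and thereby lowers the release of iron into plasma. Both ferritin mRNAs carry an iron-responsive element that holds back their translation when iron is scarce, so that mRNA and protein need not move together.

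The probes of FTH1 are shown because they fell into sets that moved differently over the arrays. Of the 10, 6 overlapped in a chain, 2 overlapped each other, and 2 overlapped no other FTH1 probe. Within the run of 6, A_72_P007652 differed from the 3 probes that cover the same base by T44C, counted from 1 at the 5′ end of A_72_P007652 and shown here in capitals, in the last 30 bases of A_72_P007652 and the first 30 of A_72_P388104, which lie over each other.
A_72_P007652: accgtcaccttttTtataagtcctaccaga
A_72_P388104: accgtcaccttttCtataagtcctaccaga
At the other end of the run, A_72_P223812 held the letters AATAAA, the common polyadenylation signal, in its last 30 bases, and the last 30 bases of the HAMP probe A_72_P302614 held the same letters, in capitals here.
A_72_P223812: tgtaccattccttcaAATAAAgtaatttgg
A_72_P302614: accctgaatggtcttggAATAAAatagctt
Searched on both strands, AATAAA stood in 3 of the 18 probes, the other one being A_72_P265022 of the same run, and in 16.3% of all probes. The run thus included letters of a polyadenylation signal, while the other 4 FTH1 probes did not hold them.

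The overlapping pair of FTH1 shared 52 bases with 1 difference, T36A counted from the 5′ end of A_72_P303704, which is the base in capitals.
A_72_P303704: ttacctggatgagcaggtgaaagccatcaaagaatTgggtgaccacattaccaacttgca
A_72_P237437: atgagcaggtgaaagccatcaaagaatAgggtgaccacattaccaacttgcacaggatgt
The single probes of FTH1 are A_72_P239260 and A_72_P417204. The 2 FTL probes that gave a signal are shown next, since they set the light chain beside the heavy chain.
A_72_P050477: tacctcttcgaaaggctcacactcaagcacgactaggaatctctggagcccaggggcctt
A_72_P257774: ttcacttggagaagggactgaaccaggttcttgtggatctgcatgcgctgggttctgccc
The 4 TF probes are shown because they did not report the same thing. A_72_P180561 and A_72_P318598 shared the 32 bases in capitals.
A_72_P180561: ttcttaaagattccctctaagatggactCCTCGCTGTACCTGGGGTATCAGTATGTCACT
A_72_P318598: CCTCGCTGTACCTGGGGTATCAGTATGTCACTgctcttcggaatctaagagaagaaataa
A_72_P308693: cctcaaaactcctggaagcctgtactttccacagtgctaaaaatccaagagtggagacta
A_72_P331100: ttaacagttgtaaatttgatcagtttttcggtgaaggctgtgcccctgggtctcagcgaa

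A level here is the log2 of the processed signal of a probe relative to the 75th percentile of its array. Probes differ in how brightly they bind, so the level of a probe is not an amount to be set against that of another probe. That percentile was 53.7 ± 16.4 in SDW animals and 51.6 ± 7.53 in control animals (SD, n = 4 each). Tests covered the 17353 probes that 4 or more of the 8 arrays measured well above background, and an array had between 35.2% and 43.6% of its probes well above background with 0 saturated. The 8 arrays lay on 3 slides, each with both diets: SDW 2, SDW 3 and control 3 on slide 1, SDW 1, control 2 and control 4 on slide 2, and SDW 4 and control 1 on slide 3. Slide 3 had a scan day of its own. Blood was as labelled by the pan-leukocyte genes PTPRC and ITGB2, which had 5 probes, 4 of them well above background on all 8 arrays. The summed levels of the monocyte and macrophage markers were 360 to 593 in SDW animals and 417 to 585 in control animals, and those of the neutrophil markers 343 to 566 in SDW animals and 473 to 745 in control animals, in multiples of the array's 75th percentile. The diets overlapped for both, and the part of these cells in the ferritin values was not tested. In blood, fewer cells of a type and less RNA per cell cannot be told apart.

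SDW 4 stood apart by liver transcripts. All 7 probes of the hepatocyte markers ALB, APOA1, TTR and SERPINA1 were well above background on that array, against 0 on each of the other SDW arrays and 0 on the control arrays except control 2, where 1 ALB probe was. Their summed level, in multiples of the array's 75th percentile, was 23.2 in SDW 4 and 0.347 to 0.64 in the other SDW animals, and 0.343 to 0.751 in control animals. Hepcidin and transferrin, also liver products, were left out of this list, and values that rest on SDW 4 are given with and without it.

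Of the 18 probes, 14 were tested. They were all 10 probes of FTH1, 2 of FTL, 1 of HAMP and 1 of TF, each a single spot with no outlier flag. No diet difference of any of them passed the test (limma, Benjamini-Hochberg adjusted p = 1 for each), and the same fit called 0 of all 17353 probes (0%). At unadjusted p under 0.05 it had 0 of the 14 and 250 of all probes (1.44%). In SDW animals 11 of the 14 were lower and 3 higher, against 47% lower over all probes, with log2 differences from -0.52 to 0.05 and a median of -0.12. This count is not of separate genes, since 10 of the 14 are probes of FTH1 read in the same animals. For 0 of the 14 did the diets separate without overlap, against 0.985% of all probes.

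**Figure D1:**
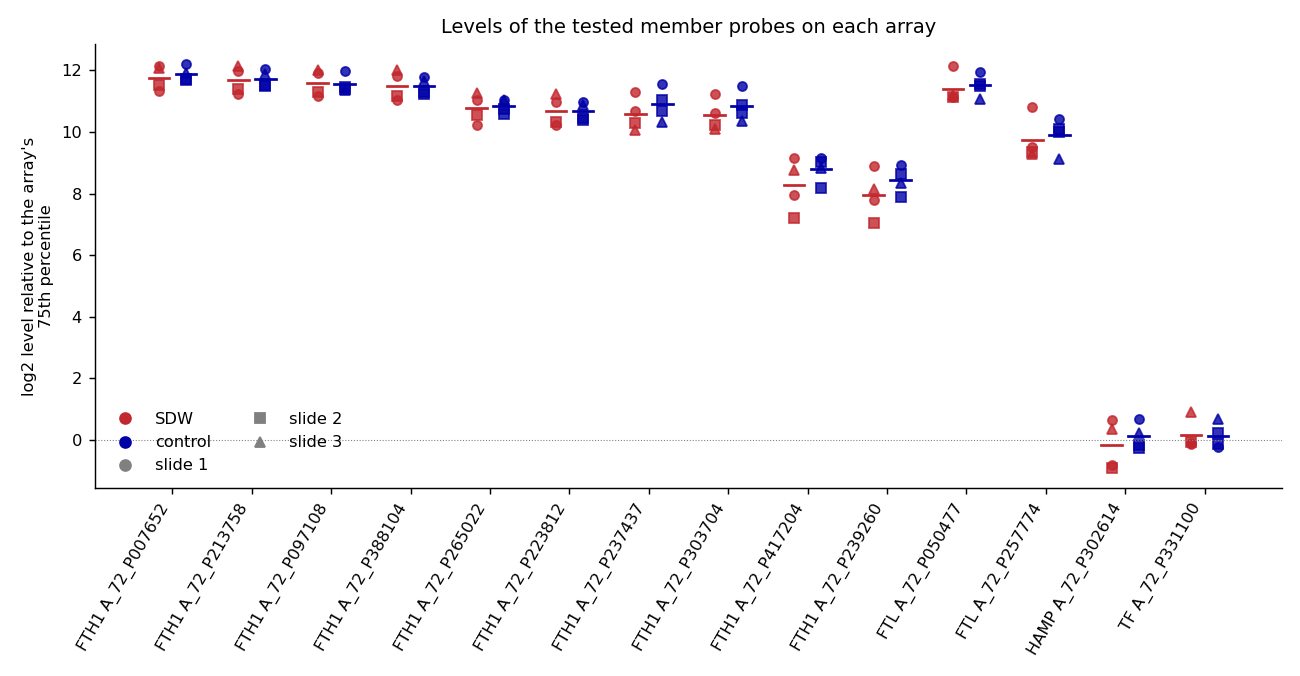
Level of the 14 tested probes on each array (vertical axis, log2 relative to the 75th percentile of the array, whose value is the dotted line at 0; SDW animals left of control animals within each probe, marker shape for the slide, bars for the means of 4 animals). The ferritin probes lay between 7.03 and 12.2 and those of hepcidin and transferrin between -0.9 and 0.91, and the diets overlapped for every probe.

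Ferritin heavy chain probes were among the brightest on the arrays. A_72_P007652 ranked between 1st and 4th of the 43603 probes by signal. Its level was 11.52, 11.32, 12.14 and 12.07 in SDW 1 to 4, against 11.90, 11.69, 12.20 and 11.73 in control 1 to 4. The lowest 2 were SDW animals, but SDW 3 and SDW 4 stood within the range of the controls, so the diets overlapped. The means were 11.76 ± 0.40 in SDW animals and 11.88 ± 0.23 in control animals (SD, n = 4 each), which differ by -0.12 on the log2 scale (standard error, SE, 0.26; limma, unadjusted p = 0.662). The 6 probes of the run differed by -0.12 to 0.05, with 4 lower and 2 higher in SDW animals.

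The pair of overlapping FTH1 probes differed more in size, though not past the test. A_72_P237437 was at 10.29, 10.67, 11.31 and 10.06 in SDW 1 to 4 and at 10.31, 10.68, 11.57 and 11.05 in control 1 to 4. SDW 4 was the lowest animal and control 3 the highest. The log2 difference was -0.32 (SE 0.35) for A_72_P237437 and -0.29 (SE 0.33) for A_72_P303704 (limma, unadjusted p = 0.386 and 0.409). Without SDW 4 these differences were -0.146 and -0.136, and with 1 array left out at a time they ranged from -0.564 (without SDW 3) to -0.0981 (without control 3) for A_72_P237437 and from -0.520 to -0.0691 for A_72_P303704, at the same arrays.

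The single FTH1 probes showed the largest differences of the 14. A_72_P239260 stood at 7.03, 7.78, 8.88 and 8.16 in SDW 1 to 4, against 8.35, 7.89, 8.92 and 8.64 in control 1 to 4. A_72_P417204 stood at 7.22, 7.94, 9.15 and 8.78 in SDW 1 to 4, against 8.83, 8.17, 9.14 and 9.01 in control 1 to 4. On both, SDW 1 was the lowest animal by more than 0.7 and SDW 3 lay at the level of the highest controls. The differences were -0.49 (SE 0.39) and -0.52 (SE 0.42) (limma, unadjusted p = 0.246 each). With 1 array left out at a time they ranged from -0.793 to -0.175 for A_72_P239260 and from -0.811 to -0.168 for A_72_P417204.

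The run and the pair of FTH1 probes differed in how they moved over the animals. The mean of the run minus the mean of the pair was 0.77, 0.24, 0.38 and 1.72 in SDW 1 to 4 and 1.13, 0.49, 0.14 and 0.23 in control 1 to 4. The 2 arrays of slide 3, SDW 4 and control 1, held the highest values, 1.13 to 1.72 against 0.14 to 0.77 on the other 6 arrays. By diet, the quantity was 0.78 ± 0.67 in SDW animals and 0.50 ± 0.44 in control animals (SD, n = 4 each). Its difference between the diets was 0.276, and -0.0368 without SDW 4. Only the change of the quantity between arrays has a meaning, since the probes differ in brightness. This quantity was formed after the values were seen and has no test.

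Over the 8 arrays, levels within the run correlated at r of 0.84 to 1.00, and levels of the run with those of the pair at 0.05 to 0.44. The single probes lay nearer to both, at 0.60 to 0.80 with the run and 0.54 to 0.73 with the pair. The pair and the FTL probes correlated at 0.89 to 0.91, and the run and the FTL probes at 0.13 to 0.62. Centred on each slide, the run and the pair correlated at 0.56 to 0.83, the run and the single probes at 0.56 to 0.75, and the pair and the single probes at 0.92 to 0.96. Centred likewise, the pair and FTL stood at 0.82 to 0.84 and the run and FTL at 0.76 to 0.95. With A_72_P050477 the run stood at 0.91 to 0.95, except A_72_P097108 at 0.82. With A_72_P257774 it stood at 0.84 to 0.89, except A_72_P097108 at 0.76. Apart from that probe, the run thus lay nearer to FTL than the pair did, the reverse of the order without centring. These correlations describe 8 arrays that share slides and a scaling, and they carry no test. Whether the slide, the scan day or the animals set the sets of probes apart was not tested.

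**Figure D2:**
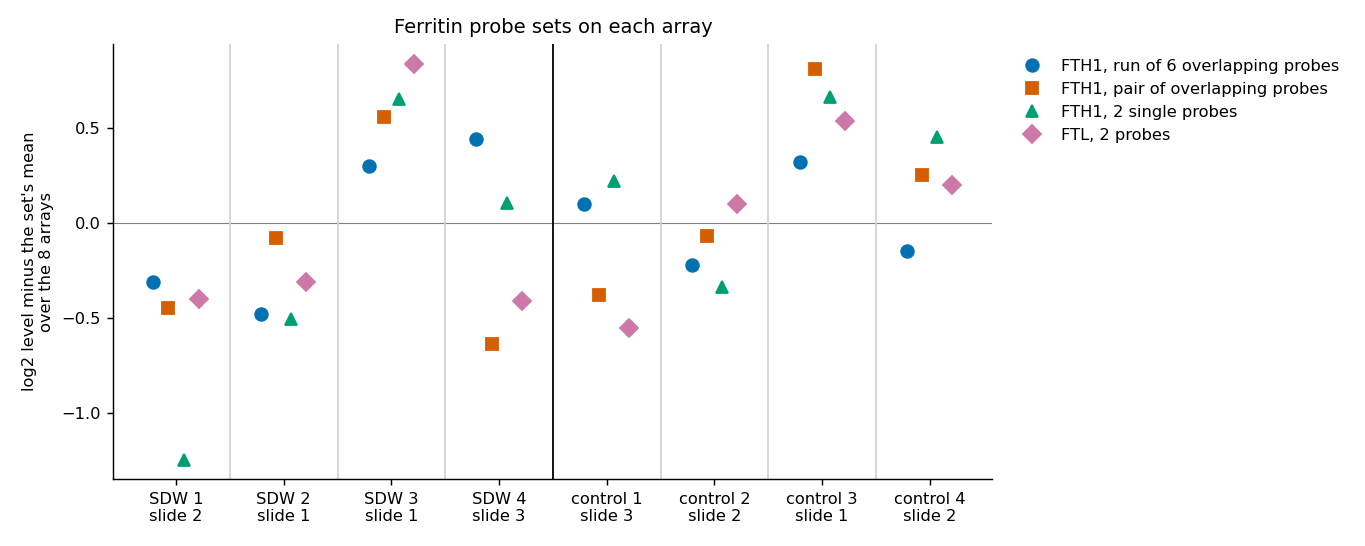
Mean level of each set of ferritin probes on each array minus that set's mean over the 8 arrays (vertical axis, log2; SDW 1 to 4 on the left of the black line, control 1 to 4 on the right, slide under each name). In SDW 4 and control 1 the run of 6 lay above the pair and the FTL probes, by run minus pair values of 1.72 and 1.13 before each set's mean was taken off.

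Ferritin light chain was read by 2 probes that ran together over the arrays (r = 0.98, n = 8). A_72_P050477 was at 11.14, 11.14, 12.15 and 11.19 in SDW 1 to 4, against 11.07, 11.49, 11.94 and 11.56 in control 1 to 4. SDW 3 was the highest animal, and the other 3 SDW animals lay close together below 3 of the 4 controls. A_72_P257774 was at 9.35, 9.52, 10.82 and 9.27 in SDW 1 to 4, against control animals that lay between 9.12 in control 1 and 10.42 in control 3, with control 4 at 10.11. SDW 3 was again the highest animal. The log2 differences were -0.11 (SE 0.30) and -0.17 (SE 0.40) (limma, unadjusted p = 0.717 and 0.678). With 1 array left out, that of A_72_P050477 ranged from -0.362 (without SDW 3) to 0.0275, and that of A_72_P257774 from -0.533 (without SDW 3) to -0.00338 (without control 3). The remaining FTL probe, A_72_P330868, was well above background on 0 of the 8 arrays.

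No difference between the diets was found in the balance of heavy over light chain. It was taken in each animal as the level of A_72_P007652 minus that of A_72_P050477, the probe of highest mean level for each gene, so that only differences between animals can be read. It was 0.38, 0.18, -0.01 and 0.88 in SDW 1 to 4 and 0.83, 0.20, 0.26 and 0.16 in control 1 to 4. The means were 0.36 ± 0.38 in SDW animals and 0.36 ± 0.31 in control animals (SD, n = 4 each), a difference of -0.00443 (two-sided exact permutation test over 70 assignments, p = 0.971, smallest p possible 0.0286). SDW 4 and control 1, the arrays of slide 3, stood at 0.83 to 0.88, whereas the other 6 arrays lay between -0.01 and 0.38. Within slides 1, 2 and 3 the difference was -0.17, 0.20 and 0.05.

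Hepcidin, read by the single probe A_72_P302614, was faint but well above background on all 8 arrays. Its level was -0.90, -0.81, 0.66 and 0.35 in SDW 1 to 4, against 0.24, -0.16, 0.69 and -0.25 in control 1 to 4. SDW 1 and SDW 2 were the lowest animals, SDW 3 matched the highest control, and the diets overlapped. The means were -0.17 ± 0.80 in SDW animals and 0.13 ± 0.43 in control animals (SD, n = 4 each), a log2 difference of -0.30 (SE 0.40; limma, unadjusted p = 0.469). SDW 4, where the liver markers stood high, was not the highest SDW animal for HAMP. Without SDW 4 the difference was -0.478, and without SDW 3 it was -0.581. It shrank to -0.0589 without SDW 1, -0.0886 without SDW 2 and -0.115 without control 3. With normexp background correction the difference was -0.0868 (SE 0.178). That correction adds an offset of 50, near the processed signal of this probe, 32.7 to 66.6. Such an offset by itself shrinks the log2 differences of a faint probe.

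Transferrin gave 4 probes with 3 kinds of reading. A_72_P331100 was well above background on all 8 arrays, at -0.07, -0.12, -0.10 and 0.91 in SDW 1 to 4, against 0.68, 0.24, -0.21 and -0.12 in control 1 to 4. The 2 arrays of slide 3 were the highest of their diets. Its log2 difference was 0.01 (SE 0.32; limma, unadjusted p = 0.984), and -0.247 without SDW 4.

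A_72_P308693 was well above background on 1 array only, SDW 4. Its level was -4.86, -5.12, -4.06 and 1.40 in SDW 1 to 4, against -3.73, -3.27, -4.22 and -4.71 in control 1 to 4. It therefore followed the liver markers of that animal: the brighter ALB probe A_72_P165481 was at 3.71 in SDW 4, the brighter APOA1 probe A_72_P192717 at 2.13 and the TTR probe A_72_P302669 at 1.78, and these 3 probes stood between -5.20 and -1.81 on every other array. No fold is given for A_72_P308693, because the mean of the SDW animals stayed below the level at which control arrays could measure it. The overlapping probes A_72_P180561 and A_72_P318598 were well above background on 0 arrays, SDW 4 included. The part of liver RNA in the TF values was not tested.

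A further probe, A_72_P035546, carries the name PICA in the annotation, for the pig inhibitor of carbonic anhydrase, a relative of transferrin, and the RefSeq table lists its accession under a second gene with the symbol TF. It was not counted as transferrin here. Its level was -2.47, -2.72, -2.75 and -0.08 in SDW 1 to 4, against -2.04, -1.84, -2.50 and -1.76 in control 1 to 4, so that SDW 4 was again the highest animal.

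**Figure D3:**
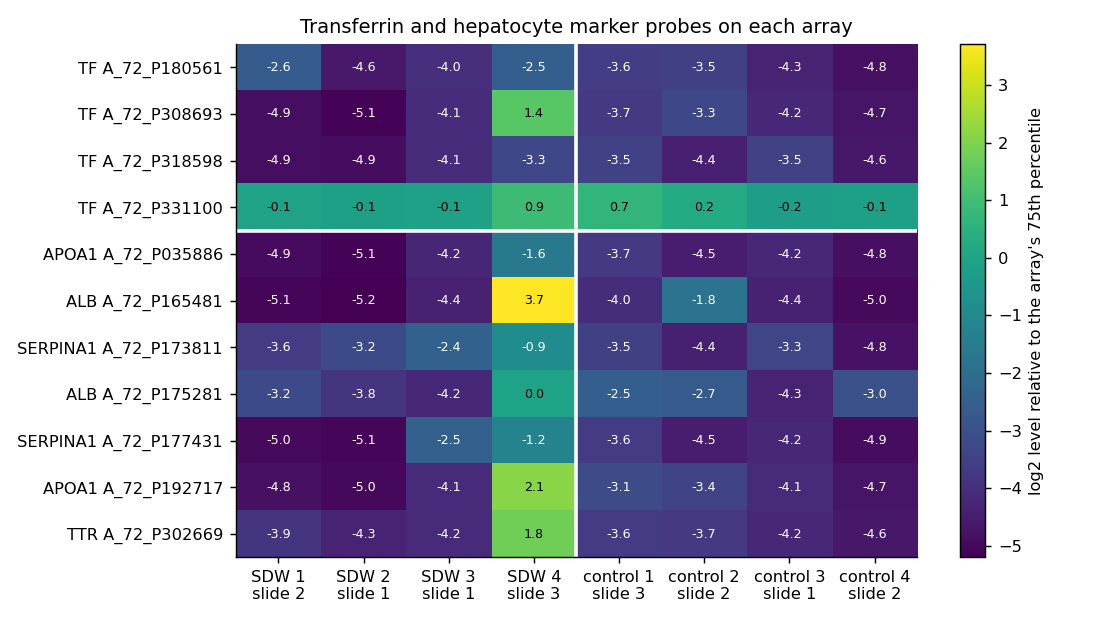
Level of the 4 transferrin probes (above the white line) and the 7 hepatocyte marker probes (below it) on each array (columns, SDW 1 to 4 left of the vertical white line and control 1 to 4 right of it; colour and printed value, log2 relative to the 75th percentile of the array). In SDW 4 the transferrin probe A_72_P308693 stood at 1.40 and the ALB probe A_72_P165481 at 3.71, while the transferrin probe A_72_P331100 lay between -0.21 and 0.91 everywhere.

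The arrays of slide 3 lay outside the others in the run minus pair and the heavy minus light chain quantities. SDW 4 and control 1 also lay above the others for A_72_P331100 of TF, at 0.91 and 0.68 against at most 0.24. For A_72_P257774 of FTL they lay below the others, at 9.27 and 9.12 against at least 9.35. For HAMP and the single FTH1 probes they lay inside the range of the others. With slide as a block in the fit, 13 of the 14 probes were lower in SDW animals, against 47.5% of all probes, with log2 differences from -0.73 to 0.05. Of the 14, 10 are probes of FTH1, 8 of which overlap another, so the count is not of separate genes. None passed (limma, smallest adjusted p = 0.731), and 0 of the 14 reached an unadjusted p under 0.05, against 6.58% of all probes. The single probes of FTH1 came to -0.72 (SE 0.33) and -0.73 (SE 0.36), the pair to -0.49 and -0.46, HAMP to -0.50 and A_72_P007652 to -0.19. The smallest unadjusted p, 0.0583, belonged to A_72_P239260.

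Within each slide taken alone, 4 of the 14 probes were lower in SDW animals on all 3 slides, against 12.6% of all probes. They were the pair and the single probes of FTH1. A_72_P237437 differed by -0.58, -0.58 and -0.25 on slides 1, 2 and 3, and A_72_P239260 by -0.59, -1.24 and -0.19. The 4 are probes of 1 gene read in the same animals, and a slide held only 2 or 3 arrays, so these values carry no test. The run of FTH1, both FTL probes and HAMP were lower in SDW animals on slides 1 and 2 and higher on slide 3, where SDW 4 was set against control 1. HAMP, for example, differed by -0.76, -0.70 and 0.12.

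**Figure D4:**
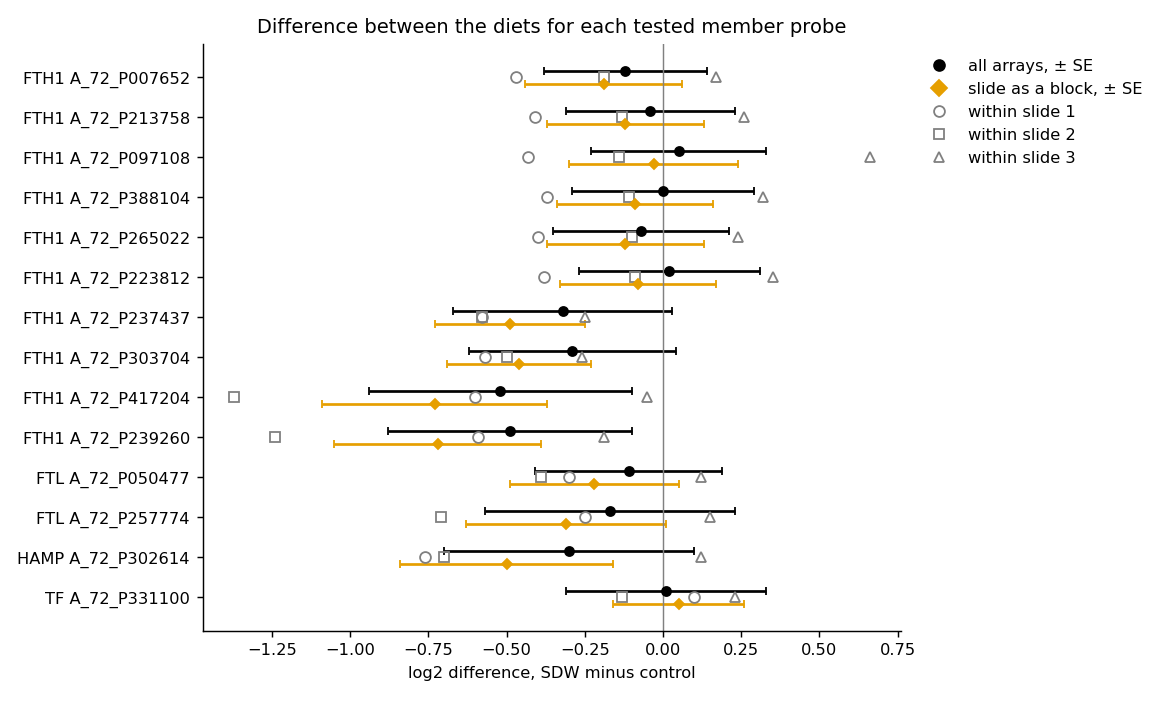
Log2 difference, SDW minus control, of each tested probe (horizontal axis; filled circles for the fit over all 8 arrays and diamonds for the fit with slide as a block, bars for the standard error, open markers for the values within each slide, which have no error). The pair and the single probes of FTH1 lay below 0 on every slide, whereas the run of FTH1, FTL and HAMP were above 0 within slide 3.

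The FTH1 run moved little before scaling and more after it. Before scaling, the signal of A_72_P007652 was 179000, 187000, 182000 and 172000 in SDW 1 to 4 and 212000, 168000, 195000 and 199000 in control 1 to 4, only 1.26-fold between the lowest and the highest array. The log2 signal of the 6 probes had standard deviations of 0.10 to 0.19 over the 8 arrays, and their levels 0.31 to 0.38. The levels of the run correlated with the log2 of the array's 75th percentile at r of -0.95 to -0.86 (n = 8), which is partly so by construction, since a level is the signal divided by that percentile. Over all tested probes the median of this correlation was 0.04, and 0.876% were under -0.8. By signal, the probes of the run ranked between 1st and 59th of the 43603 probes. Those of the pair ranked between 15th and 97th, and A_72_P050477 of FTL between 2nd and 27th. None was flagged as saturated, but whether signals this near the top of the range were compressed was not tested. The limit holds for the heavy minus light chain quantity too.

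The pair differed from the run in this too. Its signal spanned 2.73-fold and 2.94-fold over the arrays, and its levels correlated with the 75th percentile at -0.34 and -0.29. The 2 single probes spanned 2.93-fold and 3.33-fold, and the FTL probes 1.96-fold and 2.95-fold. HAMP levels correlated with the percentile at -0.89 and those of A_72_P331100 of TF at -0.28. Without scaling, the diet differences of the 14 probes ran from -0.50 to 0.07 and none passed (limma, adjusted p = 1 for each).

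**Figure D5:**
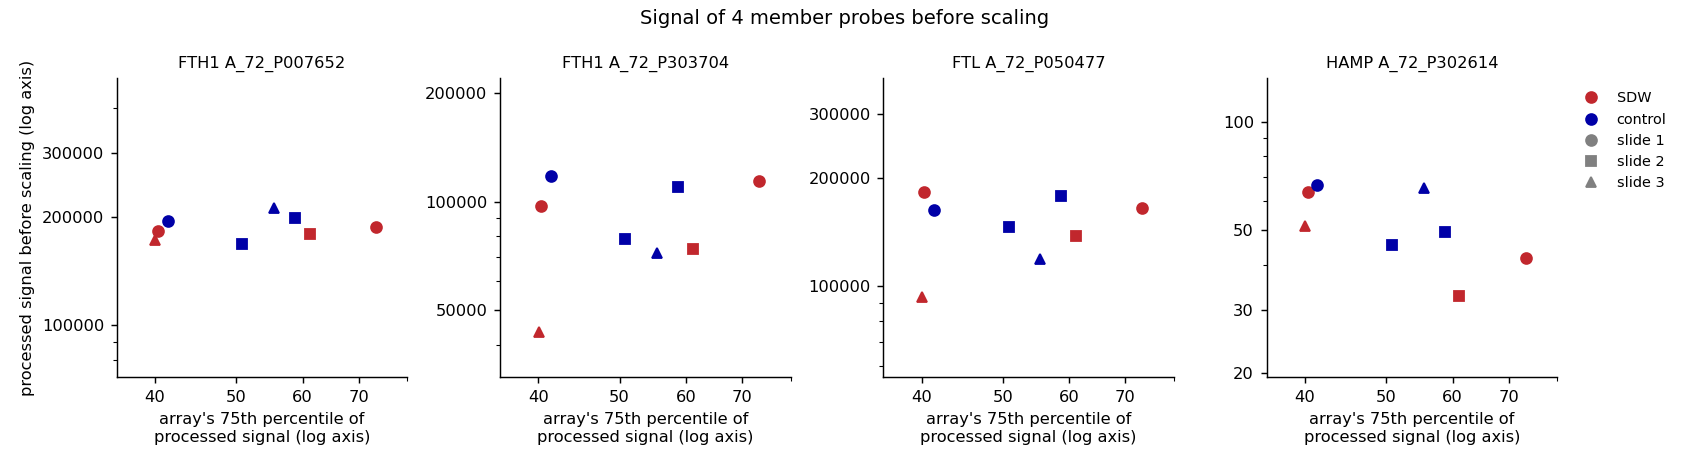
Processed signal of 4 probes before scaling (vertical axes, log scale, each spanning the same ratio) against the 75th percentile of the signal of the array (horizontal axes, log scale); SDW and control animals by colour and slides by marker shape. The FTH1 run probe A_72_P007652 stayed between 168000 and 212000 over the arrays, whereas the FTH1 pair probe A_72_P303704 ranged from 43400 to 118000, lowest in SDW 4.

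Among 1137 other named genes, each read from its probe of highest mean level, HAMP had the pattern most like A_72_P007652 of FTH1 over the 8 arrays (r = 0.969). It was followed by NOS3 (0.954), COL6A1 (0.940), WFDC2 (0.923) and MT3 (0.921). All 5 correlated with the 75th percentile of the array at -0.81 or lower, as A_72_P007652 did at -0.94. NOS3 was well above background on only 5 of the 8 arrays and COL6A1 on 7. On signals without scaling, HAMP and the FTH1 run correlated at 0.05 to 0.47 in place of 0.86 to 0.97. The likeness of HAMP to this FTH1 probe thus depended on the scaling.

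The genes most like A_72_P050477 of FTL were CRAT (0.920), CMAH (0.917), BPIFB1 (0.916), AQP1 (0.914) and RBM38 (0.913). AQP1 encodes a water channel that is abundant in red cells, and CRAT carnitine acetyltransferase. Centred on each slide, the order changed to CYP2A19 (0.977), HAMP (0.974), NGB (0.973), DES (0.973) and CSN3 (0.969) for FTL, and to NOS3 (0.967), HAMP (0.967), GUCY1B3 (0.967), SLC5A10 (0.964) and CSF3 (0.962) for FTH1. CSF3 was well above background on only 5 of the 8 arrays and GUCY1B3 on 7. HAMP was the 1 gene that stood among the 5 for both ferritin chains once slides were centred. HAMP and the FTL probes correlated at 0.49 to 0.64 without centring and at 0.06 to 0.10 on signals without scaling, so this likeness too depended on the treatment of the values. HAMP and TF correlated at 0.25.

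Beyond the 4 members, a list of 61 genes of iron metabolism had 16 genes with a probe and 13 with a tested probe, of which 9 were not members. Each gene of the list was read from its tested probe of highest mean level. None of the 13 passed (limma, 0 at unadjusted p under 0.05), 8 were lower and 5 higher in SDW animals, and the median log2 difference was -0.11 against 0.02 over all tested probes. In storage, PCBP2, an iron chaperone that delivers iron to ferritin, differed by 0.15 (SE 0.21). In transport and uptake, SLC11A1, a divalent metal transporter of phagocyte vesicles, differed by -0.05 (SE 0.27), and LTF, the neutrophil granule protein lactoferrin, by -0.75 (SE 0.56). LTF averaged 5.55 ± 0.55 in SDW animals and 6.30 ± 1.24 in control animals (SD, n = 4 each). Its difference ranged from -1.24 to -0.37 with 1 array left out, and was -1.83, 0.72 and -2.01 within slides 1, 2 and 3.

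SMAD4, which carries the signal that switches on hepcidin, differed by 0.15 (SE 0.26), and its 2 tested probes by -0.02 to 0.15. In haem breakdown and scavenging, HMOX1, the inducible haem oxygenase, averaged 3.15 ± 0.55 in SDW animals and 2.57 ± 0.82 in control animals (SD, n = 4 each), a difference of 0.57 (SE 0.43; limma, unadjusted p = 0.210). With 1 array left out it ranged from 0.23 to 0.82, and within slides 1, 2 and 3 it was -0.30, 1.79 and -0.14, so that slide 2 alone was higher in SDW animals. HMOX2, the constitutive haem oxygenase, differed by -0.27 (SE 0.55). CD163, the macrophage receptor for haemoglobin bound to haptoglobin, differed by 0.10 (SE 0.48), and its 3 tested probes by -0.06 to 0.10. HMOX2 and CD163 both changed sign with 1 array left out, with ranges of -0.67 to 0.23 for HMOX2 and -0.22 to 0.51 for CD163.

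The transferrin receptor TFRC, the divalent metal transporter SLC11A2 and the haem scavenger HPX had probes that were not tested. The probes of TFRC and SLC11A2 were well above background on 0 of the 8 arrays. TFRC was also the 1 gene of the erythroid marker list with a probe, so the erythroid share of the blood RNA could not be read from that list. Outside the list, the probe A_72_P223877 of the haemoglobin gene HBE1 was well above background on all arrays. Its level was 6.52, 6.67, 7.84 and 5.70 in SDW 1 to 4, against 5.91, 7.23, 7.61 and 7.71 in control 1 to 4. The part of red cells in the ferritin values was not tested. None of the listed genes of iron export or of the iron-responsive control of mRNAs had a probe named here.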

How the data were processed

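Whole blood RNA of 4 SDW and 4 control pigs was measured on Agilent 1-colour arrays, 1 per animal, from 0.5 µg of RNA per the labels' protocols. The deposited scanner files hold spot intensities. Per the file headers they came from Agilent Feature Extraction 10.1.1.1, and per the submitters' processing notes from 9.5.3.1. The processed signal is background-subtracted, per the file headers, with no normalization between arrays. In the authors' deposited value table, also intensities, 7 of 8 columns fitted the array of a different replicate on that diet, so replicate names follow the scanner files.

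Control spots and flagged outliers were dropped, repeated spots averaged, and log2 values taken minus the array's 75th percentile. Probes well above background on at least 4 of 8 arrays (17353) were fitted with limma 3.58.1 in R 4.3.3 (lmFit, eBayes, two-sided, Benjamini-Hochberg, threshold 0.05) with no covariate. That fit was run on simulated independent probes without slide effects, with changes larger than the differences it gave for the members. This checks the code and not the power to find differences of the size seen here. In all, 3114 probes had a gene symbol, partly through old names. No positions are given, since the files name no genome build. Array number limits precision. With no covariate in the fit, the p-values measure the spread between these animals together with that of their arrays, slides and scan days.

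All probes of the members were reported. In the iron list, the first 3 genes with a tested probe in each role were named, and the 5 genes most like each ferritin chain. A few items that this rule covers are not reported here. The members and lists were chosen with earlier results of these data known. The probe sets of FTH1, the values within slides and the values without scaling were chosen after seeing the data. Same-numbered animals did not deviate together (r = -0.17, 0.11, 0.33 and -0.38 for replicates 1 to 4), so the numbers were not taken to pair animals. Alternatives were the scaling, background correction, probe filter, outlier spots, slide or replicate as a block, array weights, a variance trend, the authors' table, arrays left out and other probes.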

Additional observations from a re-analysis of the deposited data

Results flagged for a closer look

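In 7 of 50 groups of 4 animals, 1 animal stood far from the other 3 (Dixon's ratio). Chance marks about 1 in 20 of separate groups. These groups were not separate, since they reuse the same animals and include overlapping or closely correlated probes of 1 gene. The count of 7 is therefore not read as an excess over chance. SDW 3 was apart for both FTL probes, at 12.15 for A_72_P050477, where the other SDW animals lay between 11.14 and 11.19, and at 10.82 for A_72_P257774, where they lay between 9.27 and 9.52. Control 3 was apart for the FTH1 probe A_72_P097108, at 11.97 against 11.36 to 11.45 in the other controls. Control 1 was apart in the heavy minus light chain quantity, at 0.83 against 0.16 to 0.26, and for HMOX2, at 2.29 against 0.13 to 0.44. For HMOX2, SDW 4, the other array of slide 3, stood at 1.72, and the arrays of the other slides between -0.14 and 0.62. SDW 4 was apart for the TF probe A_72_P331100, at 0.91 against -0.12 to -0.07 in the other SDW animals.

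SDW 4 was also apart for HP, the haemoglobin-binding plasma protein haptoglobin, at 1.75 against -1.46 to -1.19, a gene named after its values were seen. HP averaged -0.59 ± 1.56 in SDW animals and -0.19 ± 0.41 in control animals (SD, n = 4 each), and the controls lay between -0.61 and 0.29. Its log2 difference was -0.40 (SE 0.66), and ranged from -1.18 (without SDW 4) to -0.11 with 1 array left out. Another HP probe, A_72_P395143, was not tested. It stood at -0.35 in SDW 4 and between -5.01 and -2.06 on the other arrays. Outside the tested probes, the TF probe A_72_P308693 gave a signal in SDW 4, at 1.40, above the -4.71 to -3.27 of the controls, none of which stood well above background. Liver transcripts in SDW 4 stood beside these HP and TF values, and their part was not tested.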

How the results depend on the processing

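Over 364 repeats with other settings, the member probes changed sign in 51, and none that had a test passed (smallest adjusted p = 0.731, smallest unadjusted p = 0.0552). The pair and the single probes of FTH1 kept their direction in every repeat. Without both arrays of slide 3, 1 of all probes passed in place of 0, not a member, and 0 passed with any 1 array left out. That setting brought A_72_P097108 to -0.152, A_72_P223812 to -0.0946 and A_72_P331100 of TF to -0.0681. With slide as a fixed block, A_72_P097108 came to -0.0286, A_72_P223812 to -0.0775 and the heavy minus light chain difference to 0.0229; with slide as a random block, A_72_P223812 came to -0.0391. Array weights gave -0.0147 for A_72_P097108, 0.00622 for A_72_P388104 and -0.0497 for A_72_P331100.

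Normexp with the 75th percentile gave 0.0290 for A_72_P265022 and 0.00441 for A_72_P388104, and normexp with quantile normalization 0.0985 for A_72_P007652, 0.0657 for A_72_P213758, 0.0340 for A_72_P265022 and 0.167 for the chain difference. The median in place of the 75th percentile gave 0.0344 and no scaling 0.0187 for A_72_P388104. Quantile normalization gave 0.0516 for the chain difference, and the authors' values gave 0.00303 for it and -0.108 for A_72_P223812.

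Within slide 3, A_72_P007652 came to 0.166, A_72_P213758 to 0.262, A_72_P265022 to 0.239, A_72_P388104 to 0.324, the FTL probes to 0.118 and 0.151, HAMP to 0.117 and the chain difference to 0.0477. Within slide 1, A_72_P097108 came to -0.428 and A_72_P223812 to -0.382. Within slide 2, they came to -0.142 and -0.0943, A_72_P331100 to -0.133 and the chain difference to 0.200. The cause of these changes was not tested.

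Other pairs of FTH1 and FTL probes turned the chain difference to 0.0552, 0.163, 0.223, 0.0689, 0.129, 0.130, 0.190, 0.0456, 0.105, 0.112 and 0.172, while the 8 pairs with the other 4 FTH1 probes gave -0.405 to -0.115, and its smallest exact permutation p over 38 tests was 0.229. With 1 array left out it ranged from -0.177 to 0.151, A_72_P007652 from -0.244 to 0.0293, A_72_P097108 from -0.0910 to 0.192, A_72_P213758 from -0.192 to 0.104, A_72_P223812 from -0.164 to 0.170, A_72_P265022 from -0.234 to 0.114, A_72_P388104 from -0.168 to 0.157, A_72_P050477 of FTL from -0.362 to 0.0275, A_72_P331100 of TF from -0.247 to 0.185, the iron list's median from -0.162 to 0.0247 and the run minus pair difference from -0.0368 to 0.486.

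The count of all probes at unadjusted p under 0.05, 250, came to 1141 with slide as a fixed block, 635 with slide as a random block, 543 without slide 3, 824 with no filter, 166 with probes well above background on all 8 arrays, 164 with normexp, 396 with array weights, 121 with no scaling and 179 to 519 with 1 array left out, of which 519 came without SDW 4, 440 without SDW 3 and 420 without control 1. With the replicate number as a block, 0 probes passed (limma, 238 at unadjusted p under 0.05) and the chain difference stayed at -0.00443 (exact permutation p = 0.875). The chain difference was not run with slide as a random block. Dim probes limit transferrin most, with 3 of 4 probes read on 1 array or none.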
